A study of Saccharomyces cerevisiae with 27 samples.

Results

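The G906D strain of Saccharomyces cerevisiae was compared with the WT strain after 2 h at 37 °C, in poly(A) RNA libraries from 3 biological replicates of each strain (A, B and C). These are 6 of the 27 libraries of a study that sampled the WT, G906D and C719A strains at 30 °C (0 h) and again when cells had spent 1 h or 2 h at 37 °C. The 6 libraries were chosen by their strain and time labels alone. Of the 7122 gene IDs in the count table, 593 start with YGL or YGR and lie on chromosome VII. Of the 6386 genes with enough counts to be tested, 557 lie there, and they are reported apart from the rest. All strains derive from BY4741, lack the chromosomal ALA1 gene (ala1Δ) and carry ALA1 on pRS315, a single-copy LEU2 plasmid. For the mutants, this plasmid had replaced a URA3 plasmid (pRS316) with WT ALA1. Cells were grown to log phase in rich glucose medium (YPD) and then moved to 37 °C. The methods do not say whether each strain was 1 clone, and counts per gene do not tell the ALA1 alleles or the plasmid and chromosome apart.

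ALA1 encodes alanyl-tRNA synthetase (AlaRS), which joins alanine to its tRNA and removes serine and glycine joined by mistake. The G906D change lowers aminoacylation and leaves editing, whereas C719A inactivates editing and leaves aminoacylation. In yeast, uncharged tRNA activates the kinase Gcn2, which raises translation of the transcription factor Gcn4 and, through it, transcription of amino acid biosynthesis genes (the general amino acid control). Heat activates Hsf1, which drives chaperone genes, and Msn2 and Msn4, which drive general stress genes, while genes for ribosomes are usually turned down for a time.

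The reference sequence around both changed codons is shown because these codons are the only designed difference between the strains. Capitals mark the codon, glycine in the first line and cysteine in the second, and both lie in the single exon of ALA1 on the minus strand of the R64 assembly (RefSeq), at chrXV:946371-946415 and chrXV:946932-946976.
ALA1 codon changed in G906D: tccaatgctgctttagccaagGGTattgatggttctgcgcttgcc
ALA1 codon changed in C719A: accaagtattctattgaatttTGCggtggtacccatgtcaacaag
Expression values are TMM-scaled CPM (a gene's count as a share of its library, scaled up). ALA1 had 1680, 1864 and 1813 CPM in the G906D libraries, against 1474, 1872 and 1276 CPM in the WT libraries. The ranges overlapped, and the log2 fold change of 0.21 (SE 0.156) did not pass the threshold (adjusted p = 0.234, edgeR's quasi-likelihood test). The log2 fold change was 0.38 without WT replicate B, where it passed (adjusted p = 0.0497, same test). A difference in ALA1 mRNA was thus not detectable with all 6 libraries.

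Genotype markers were checked in the same libraries. LEU2, the plasmid's marker and a gene of leucine synthesis, had 610.6, 683.9 and 779 CPM in the G906D libraries and 284.5, 418.2 and 266.8 CPM in the WT libraries, which did not overlap (log2 fold change 1.10). HIS3, which carries an internal deletion in BY4741, was counted at 81.25, 79.16 and 92.97 CPM in the G906D libraries and 27.1, 35.46 and 32.74 CPM in the WT libraries (log2 fold change 1.41), and these reads were not traced to a source. URA3, MET17 and LYS2 had 0 counts in all 27 libraries. BY4741 lacks URA3 and MET17 but is a MATa strain with an intact LYS2, so the counts of LYS2 go against that name. So do the genes of the mating types. The 4 alpha-specific genes (the pheromone genes MF(ALPHA)1 and MF(ALPHA)2, the receptor gene STE3 and the agglutinin gene SAG1) summed to 1385, 1467 and 1547 CPM in the G906D libraries and to 379.9, 465.7 and 431.7 CPM in the WT libraries. The 7 a-specific genes (MFA1, MFA2, STE2, STE6, BAR1, AGA2 and ASG7), which define MATa cells, summed to 220.4, 189.3 and 197 CPM in the G906D libraries and to 97.78, 83.37 and 80.24 CPM in the WT libraries. No member of either list was at 0 in these 6 libraries.

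Total counts ran from 15273233 to 16182595 in the G906D libraries and from 16837891 to 19061146 in the WT libraries. WT replicate A stood apart from its group. Chi-square per degree of freedom over all genes was 76.3 and 59.6 between it and the other WT libraries, 10.1 between those 2, and 12 to 30.4 among the G906D libraries. Several results below are given with and without WT replicate A, but not every result that moved when it was left out. For example, the median log2 fold change without it was 0.91, against 1.05, for genes of RNA polymerases I and III. For pheromone response genes it was 1.01, against 1.13. Both strains had more HSP104 mRNA, a gene induced by heat, at 0 h than at 2 h. HSP104 had 3157, 3114 and 3253 CPM in the G906D libraries and 4688, 5074 and 6117 CPM in the WT libraries labelled 0 h, against means of 573 CPM in the G906D and 1154 CPM in the WT libraries at 2 h. The time labels were used as given, and what set the level at 0 h was not tested.

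Of the 6386 genes tested, 65.1% differed between the strains at 2 h. In all, 2038 genes (31.9%) were higher in the G906D strain than in the WT and 2119 (33.2%) were lower, at an adjusted p under 0.05 in edgeR's quasi-likelihood test. Among the higher genes, 768 differed by at least 2-fold, and among the lower genes, 307. With libraries scaled by total count alone instead of TMM, 1680 genes were higher and 2698 lower, and the median over all genes moved to -0.15 on the log2 scale from -0.01. The signs of the list medians given below for G906D against WT at 2 h held under that scaling except where stated. At 0 h that scaling moved the median over all genes to -0.37 from -0.03, and against C719A at 2 h to -0.15 from -0.01. Without WT replicate A, 1914 genes were higher and 1905 lower. The 3 libraries of each strain did not overlap for 72.9% of the genes tested.

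Chromosome VII stood apart from every other chromosome. Of its 557 tested genes, 467 (83.8%) were higher in the G906D strain, 10 (1.8%) were lower and 80 were not called, with a median log2 fold change of 0.95 (quartiles 0.57 and 1.32). Of the 5829 genes on the other 15 chromosomes and elsewhere, 1571 (27%) were higher and 2109 (36.2%) lower, with a median of -0.07. The medians of the 15 other chromosomes lay between -0.18 (XIII) and -0.04 (V), and their share of higher genes between 21.8% (I) and 31.4% (III). Chromosome VII held 8.72% of the genes tested but 22.9% of those higher, 32.7% of those higher by at least 2-fold and 0.472% of those lower.

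**Figure D1:**
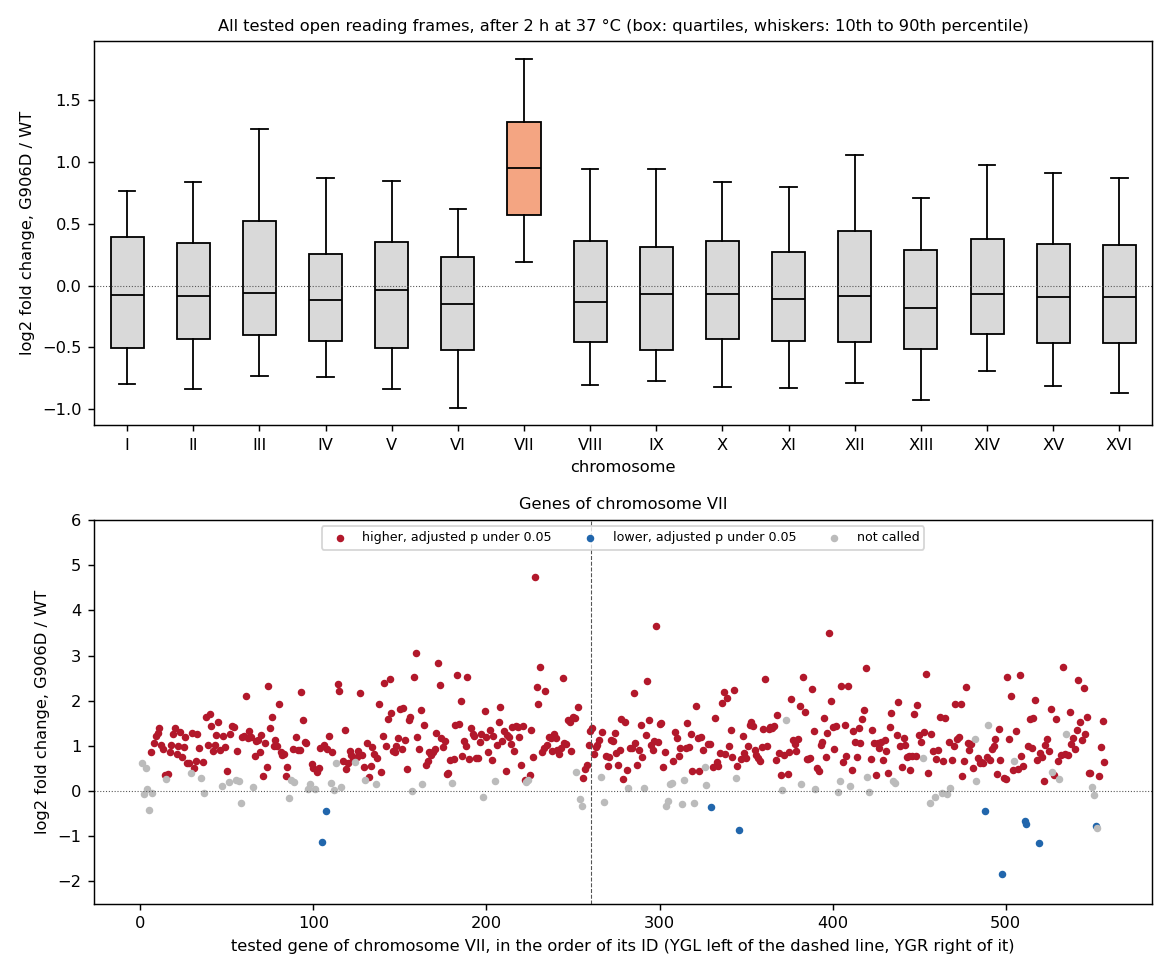
Upper panel, log2 fold change of G906D over WT after 2 h for tested open reading frames by chromosome (line, median; box, quartiles; whiskers, 10th and 90th percentiles). Lower panel, each tested gene of chromosome VII in the order of its ID, coloured by call. The box of chromosome VII runs from 0.57 to 1.32, whereas the medians of the others lie between -0.18 and -0.04.

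The shift ran along the whole chromosome. The 260 tested genes of the left arm (YGL) had a median log2 fold change of 0.97, with 219 higher and 2 lower, and the 297 of the right arm (YGR) a median of 0.94, with 248 higher and 8 lower. In 10 consecutive segments of 55 or 56 tested genes, the medians ranged from 0.88 to 1.11. Of the 557 genes, 338 (60.7%) had a log2 fold change between 0.5 and 1.5, a band that held 17.8% of the genes elsewhere. In terms of reads, chromosome VII took 19%, 19.4% and 19.6% of the counts in the G906D libraries, against 9.33%, 9.84% and 9.77% in the WT libraries. Part of this gap was the single gene TDH3. Without TDH3 the shares were 16.5%, 16.5% and 16.6% in the G906D libraries and 8.92%, 9.17% and 9.18% in the WT libraries.

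The shift was present before heat and did not appear in the other mutant. The median log2 fold change of the chromosome VII genes between G906D and WT was 0.91 at 0 h, 0.96 at 1 h and 0.95 at 2 h. With scaling by total count alone it was 0.56, 0.83 and 0.81, and that of the other genes -0.43, -0.18 and -0.22. At 2 h it was -0.01 between C719A and WT and 0.94 between G906D and C719A, where 499 of the 557 genes were higher in G906D and 2 lower. In gene lists with at least 3 tested members on chromosome VII, the median of those members minus that of the other members ran from -0.9 (pentose phosphate pathway) to 1.61 (aromatic amino acid biosynthesis). The 14 cytosolic ribosomal protein genes there had a median of 2.22, against 1.25 for the 124 elsewhere. The 10 ribosome biogenesis genes had a median of 2.29, against 1.3 for the 125 elsewhere. The 7 mitochondrial ribosomal protein genes had a median of 0.56, against -0.38 for the 67 elsewhere. The 4 genes of cytosolic aminoacyl-tRNA synthetases had a median of 1.58, against 0.64 for the 17 elsewhere, and the 4 proteasome genes 1.57, against 0.33 for the 28 elsewhere. The difference was 0.65 for glycolysis, 1.21 for sulfur genes and 1.37 for ergosterol genes, and over all genes tested it was 1.02. The 3 pentose phosphate genes on chromosome VII went the other way, with a median of -0.67 against 0.23 for the 8 elsewhere. The shift and the G906D change occur in the same strain, so their effects on genes elsewhere cannot be told apart.

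Of the chromosome VII genes whose log2 CPM averaged 5 or more, those that rose the most were TPO2, MF(ALPHA)2, CGR1, EFG1, NSR1 and TDH3. TPO2, a plasma membrane exporter of polyamines, had 826.5, 801.9 and 867.4 CPM in the G906D libraries, against 50, 86.06 and 83.53 CPM in the WT libraries (log2 fold change 3.51, SE 0.212). NSR1, a nucleolin-like protein of ribosome assembly, had 703.3, 771.6 and 840.1 CPM in the G906D libraries, against 81.1, 137.7 and 131.8 CPM in the WT libraries (log2 fold change 2.72, SE 0.275). CGR1 and EFG1, both needed to process ribosomal RNA, had log2 fold changes of 2.76 and 2.75. In these 4 genes (TPO2, NSR1, CGR1 and EFG1) the lowest G906D library lay far above the highest WT library. Of the 10 lower genes, the following fell furthest or carried the most counts. SPG1, a gene of stationary phase, had 23.83, 15.22 and 15.2 CPM in the G906D libraries, against 89.29, 50.87 and 55.34 CPM in the WT libraries (log2 fold change -1.85, SE 0.252). GND2, the minor isozyme of 6-phosphogluconate dehydrogenase, had 240.3, 204.7 and 178.5 CPM in the G906D libraries, against 650.1, 367.8 and 366.1 CPM in the WT libraries (log2 fold change -1.15, SE 0.237). CTT1, the cytosolic catalase, had 1804, 1452 and 1153 CPM in the G906D libraries, against 3534, 2350 and 2144 CPM in the WT libraries (log2 fold change -0.86, SE 0.309). These ranges did not overlap, which the rule that chose the genes required, and WT replicate A was the highest library for all 3. Without it, CTT1 was at -0.61 and SOL4, a 6-phosphogluconolactonase, at -0.41 against -0.67 with it, and neither passed the threshold (adjusted p = 0.112 and 0.147, edgeR's quasi-likelihood test). Both also lost their calls without G906D replicate C (adjusted p = 0.0809 and 0.0846, same test). The protein kinase gene RCK1 (-1.13) lost its call without WT replicate A as well, at -1.17 (adjusted p = 0.0565, same test). RCK1 also lost it without WT replicate C, G906D replicate B or G906D replicate C (adjusted p = 0.1, 0.0925 and 0.107, same test). It did so too with DESeq2 and with TMM computed without chromosome VII. The same 10 genes had log2 fold changes of -0.77 to -2.34 between C719A and WT.

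The largest rises outside chromosome VII were in genes of the mating pheromone response, in which a pheromone receptor acts through a kinase cascade on the transcription factor Ste12. Of 28 genes listed, 22 were higher and 3 lower, with a median of 1.13, against 31.9% and 33.2% of all genes tested. Upstream sequences are shown for the genes that rose most. Capitals mark the Ste12 site TGAAACA or its complement TGTTTCA, read 5′ to 3′ on the gene's strand from R64, at chrXIV:110747-110776 (+), chrIII:27818-27847 (+), chrIII:71632-71661 (+), chrXIV:703486-703515 (+) and chrVII:437014-437043 (-).
PRM1: tgtttcaatacTGTTTCAgaagtgcgtcac
KAR4: gcgacataactTGTTTCAacttttcaagtg
FUS1: cgtctgtaattTGAAACAaataacgtaatt
AGA1: acataattttcTGAAACAatattaaaacat
AGA2: aattaagggacTGTTTCAtaccttcagatc
In the 500 bases before the start codon, on either strand, the site was found in 18 of the 28 genes, against 12% of 6006 protein-coding genes. The median was 1.47 (log2) for these 18 and 0.48 for the other 10.

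PRM1, which acts in membrane fusion of mating cells, had 345.8, 341.7 and 292.1 CPM in the G906D libraries, against 21.08, 22.74 and 25.16 CPM in the WT libraries (log2 fold change 3.83, SE 0.168). KAR4, a regulator of nuclear fusion genes, had 341.3, 321.6 and 277.4 CPM in the G906D libraries, against 22.55, 22.43 and 24.17 CPM in the WT libraries (log2 fold change 3.77, SE 0.121). The strains were more than 10-fold apart in every pair of libraries for both genes. AGA1, the anchor of the a-cell agglutinin, had 610.7, 582.9 and 508.8 CPM in the G906D libraries, against 50.66, 54.79 and 56.28 CPM in the WT libraries (log2 fold change 3.40). AGA2, on chromosome VII, encodes the binding subunit of that agglutinin and had 43.31, 33.63 and 39.11 CPM in the G906D libraries, against 1.77, 1.185 and 1.412 CPM in the WT libraries (log2 fold change 4.73, SE 0.285). The WT values of AGA2 rest on 35, 26 and 27 counts. The signalling genes moved less. STE12 had 194.4, 203.2 and 188.4 CPM in the G906D libraries, against 63.45, 72.11 and 74.75 CPM in the WT libraries (log2 fold change 1.48), and the kinase gene FUS3 and the cyclin-dependent kinase inhibitor gene FAR1 had log2 fold changes of 1.47 and 1.27. The kinase genes STE7 and STE11 and the scaffold gene STE5 were lower, at -0.62, -0.24 and -0.36, and STE11 lost its call without WT replicate A, at -0.19 (adjusted p = 0.0746, edgeR's quasi-likelihood test). STE11 also lost it without G906D replicate C (adjusted p = 0.0637, same test) and with TMM computed without chromosome VII.

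Genes of both mating types moved along with the pheromone response. Of the 4 alpha-specific genes all were higher, with MF(ALPHA)1 at 790.6, 857.5 and 959.8 CPM in the G906D libraries, against 160.3, 226.2 and 193.1 CPM in the WT libraries (log2 fold change 2.17). Of the 7 a-specific genes, 6 were higher, with MFA1 at 46.57, 32.48 and 33.82 CPM in the G906D libraries, against 3.792, 3.555 and 3.138 CPM in the WT libraries (log2 fold change 3.42). STE6, the a-factor exporter, was the exception at -0.26 (adjusted p = 0.0509, edgeR's quasi-likelihood test). All 7 a-specific genes held a TGAAACA site in the same window. Whether cells of different mating type contributed to these values was not tested.

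**Figure D2:**
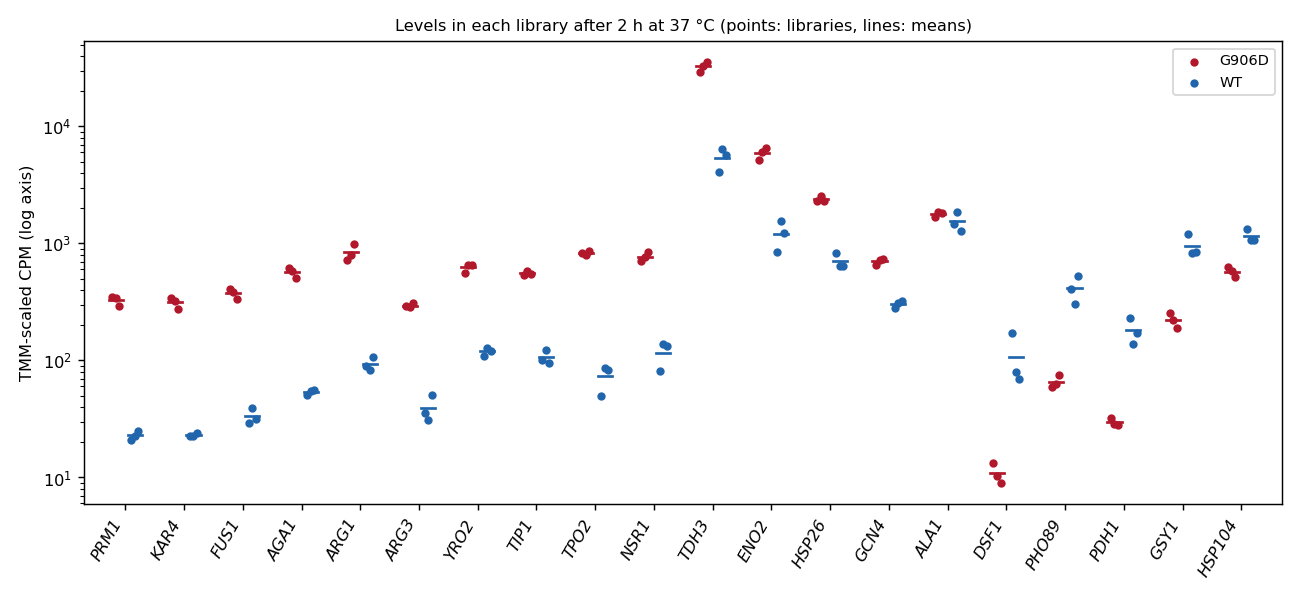
TMM-scaled CPM (log axis) of 20 genes in each library after 2 h at 37 °C; points are libraries and lines are group means, with G906D left of WT for each gene. The groups overlap for ALA1 and not for the other genes, with PRM1 between 292.1 and 345.8 CPM in G906D and between 21.08 and 25.16 CPM in WT.

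Genes of amino acid biosynthesis rose in most branches, with the highest median in the arginine branch. All 9 arginine genes were higher, with a median log2 fold change of 1.66 and a range of 0.33 to 3.18. Upstream sequences are shown for 3 Gcn4 targets, with the Gcn4 site TGACTC or its complement GAGTCA in capitals, from R64 at chrXV:218925-218954 (+), chrX:268473-268502 (+) and chrIII:68515-68544 (-).
ARG1: tgccgtatggaaGAGTCAtttaaaggcagg
ARG3: agggtcacgtcgTGACTCatatgctttctt
HIS4: acccatgcacagTGACTCacgtttttttat
This site was found within 500 bases of the start codon in 9 of 9 arginine genes, against 12.7% of 6006 protein-coding genes. The other branches held it in 6 of 7 histidine, 4 of 5 threonine, 8 of 11 branched-chain, 6 of 14 aromatic and 2 of 7 lysine genes. Aromatic genes with and without it had medians of 0.76 and 0.75, and lysine genes 0.80 and 0.70. Among the 5831 protein-coding genes tested, the median was 0.01 (log2) with the site and -0.05 without it.

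ARG1, argininosuccinate synthetase, had 723.2, 800.5 and 998 CPM in the G906D libraries, against 89.95, 82.36 and 106 CPM in the WT libraries. ARG3, ornithine carbamoyltransferase, had 289.8, 286.7 and 306.9 CPM in the G906D libraries, against 35.7, 30.99 and 50.42 CPM in the WT libraries. ARG56 (ARG5,6), which encodes the acetylglutamate kinase and reductase, had 344, 373.6 and 396 CPM in the G906D libraries, against 88.93, 97.04 and 114.7 CPM in the WT libraries (log2 fold change 1.89). No library of either strain reached the range of the other for these genes, which the rule that chose ARG1 and ARG3 required. Genes that break arginine and proline down went the other way, with 3 of 4 lower: CAR2, ornithine transaminase, at -0.96, and PUT1 and PUT2, of proline oxidation, at -0.83 and -0.76.

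All 7 histidine genes were higher (median 0.59), as were 6 of 7 lysine genes (0.76), all 5 of the threonine branch (0.99), 10 of 11 branched-chain genes (1.02), 13 of 14 aromatic genes (0.76) and 8 of 17 genes of sulfate assimilation and methionine (0.21, with 2 lower). HIS4, which catalyses 3 steps of histidine synthesis, had 454, 555.4 and 767.4 CPM in the G906D libraries, against 209.9, 233.6 and 250.9 CPM in the WT libraries, so that the G906D libraries differed among themselves by more than the WT libraries did. ASN1, asparagine synthetase, had 201.8, 230.7 and 287 CPM in the G906D libraries, against 53.54, 61.63 and 74.54 CPM in the WT libraries (log2 fold change 1.92). The exceptions included SER3, of serine synthesis, at -1.05, and ARO9 and BAT2, the transaminases that also serve amino acid breakdown, at -0.90 and -0.48. The 3 largest rises among aromatic genes were ARO2, TRP5 and ARO8, all on chromosome VII, and the 11 members elsewhere had a median of 0.60.

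The regulators of the general amino acid control changed in both directions. GCN4 had 653.3, 720.9 and 734.4 CPM in the G906D libraries, against 278, 312.3 and 323.8 CPM in the WT libraries (log2 fold change 1.21, adjusted p = 1.24e-07 in edgeR's quasi-likelihood test). PCL5, the cyclin that directs Gcn4 breakdown, had 1357, 1308 and 1404 CPM in the G906D libraries, against 577.3, 594.7 and 635.3 CPM in the WT libraries (log2 fold change 1.17). The kinase gene GCN2 was lower, with 87.29, 91.11 and 87.43 CPM in the G906D libraries, against 111, 111.7 and 105.8 CPM in the WT libraries (log2 fold change -0.31). Of 13 genes listed, 10 were higher and 2 lower. Genes for the cytosolic aminoacyl-tRNA synthetases rose as a group, 19 of 21 (median 0.85), led by MES1 (1.81) and TYS1 (1.70) on chromosome VII and KRS1 (1.46) on chromosome IV, the enzymes for methionine, tyrosine and lysine. ALA1 was 1 of the 2 that were not called.

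Genes for making ribosomes were higher almost without exception. Of 138 cytosolic ribosomal protein genes 134 were higher and 0 lower, and of 135 ribosome biogenesis genes 132 were higher and 0 lower (median 1.32). Of 20 genes of RNA polymerases I and III, 19 were higher (median 1.05), and RPA49, a subunit of polymerase I, had 66.23, 85.38 and 99.47 CPM in the G906D libraries, against 20.38, 31.18 and 26.57 CPM in the WT libraries (log2 fold change 1.68). Ribosomal protein genes took 9.9%, 10.1% and 10.7% of scaled counts in the G906D libraries, against 3.52%, 5.2% and 4.65% in the WT libraries. WT replicate A was the lowest. Without it, the median was 1.15 for ribosomal protein genes, against 1.28 with it, and 1.14 for ribosome biogenesis. Reads of near-identical ribosomal protein pairs could have been assigned to either copy.

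The PAC element GCGATGAG, common upstream of ribosome biogenesis genes, is shown in capitals for 2 of them, as CTCATCGC on the opposite strand in the first, from R64 at chrVII:807825-807854 (-) and chrVII:439919-439948 (+).
NSR1: tgcaagggcagCTCATCGCaagaacgaaaa
CGR1: aactggaaaaaGCGATGAGataaaattttc
It was found within 500 bases of the start codon in 70 of 135 ribosome biogenesis genes (51.9%) and in 1 of 138 ribosomal protein genes, against 4.83% of 6006 protein-coding genes. Biogenesis genes with and without it had medians of 1.35 and 1.27. EFG1, at 2.75, had no PAC element in its window.

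The mitochondrial ribosome differed from the cytosolic one. Of 74 genes, 47 were lower and 6 higher, with a median of -0.33. RML2 and NAM9, of its large and small subunits, had log2 fold changes of -0.76 and -0.74, with RML2 at 62.98, 61.77 and 68.36 CPM in the G906D libraries, against 116.7, 103.9 and 106.7 CPM in the WT libraries. All 6 higher genes lie on chromosome VII, MNP1 first among them (1.27). MNP1 had 30.7, 38.64 and 36.66 CPM in the G906D libraries, against 12.59, 15.54 and 15.9 CPM in the WT libraries.

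**Figure D3:**
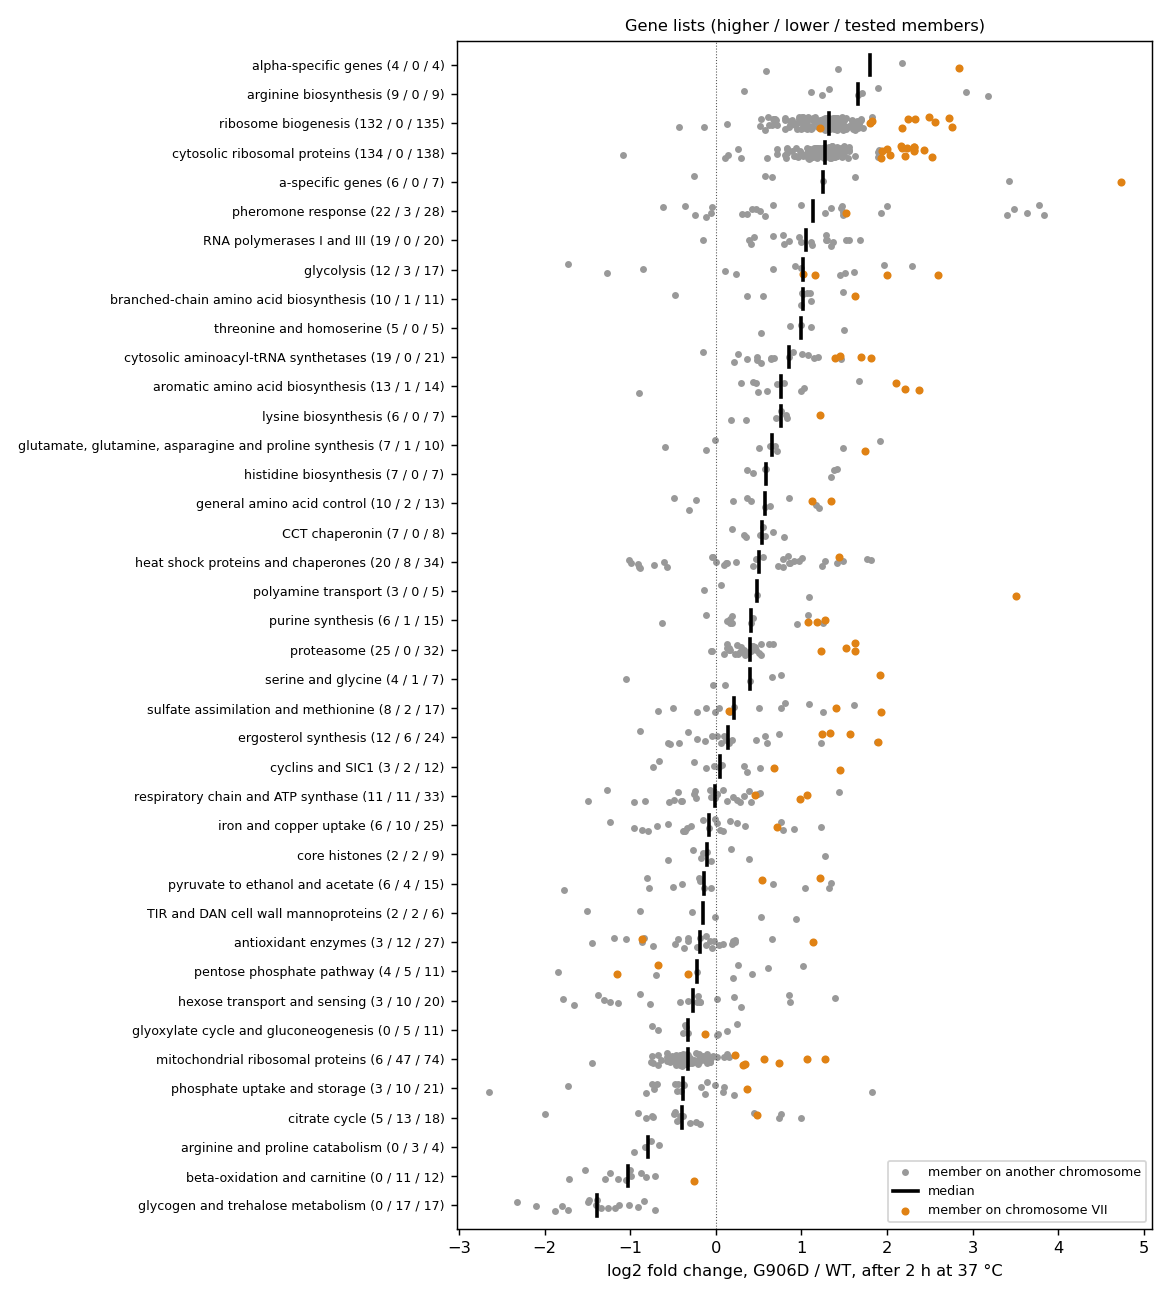
Log2 fold change of G906D over WT after 2 h for each tested member of the gene lists (points; orange, chromosome VII; grey, other chromosomes) and the list median (black line), with counts of higher, lower and tested members. Ribosome biogenesis (132 higher, 0 lower) and glycogen and trehalose metabolism (0 higher, 17 lower) lie on opposite sides of 0, and orange points mostly lie right of their list's median.

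Carbon metabolism split between glycolysis and storage. Of 17 glycolysis genes 12 were higher and 3 lower, with a median of 1.02. TDH3, the main glyceraldehyde-3-phosphate dehydrogenase and a gene of chromosome VII, had 29260, 33070 and 35200 CPM in the G906D libraries, against 4076, 6415 and 5727 CPM in the WT libraries (log2 fold change 2.59, SE 0.23). ENO2, an enolase on chromosome VIII, had 5140, 6010 and 6600 CPM in the G906D libraries, against 843.5, 1543 and 1233 CPM in the WT libraries (log2 fold change 2.29, SE 0.239). TDH2 and ENO1, their close paralogs, had log2 fold changes of 1.97 and 2.00, and reads shared within a pair could have been counted for either. The genes that were lower encode enzymes used when glucose is scarce. HXK1, a hexokinase, had 1511, 1325 and 1157 CPM in the G906D libraries, against 5147, 3826 and 4198 CPM in the WT libraries (log2 fold change -1.72), with GLK1, glucokinase, at -0.85 and PYK2, the minor pyruvate kinase, at -1.27. Among genes that turn pyruvate into ethanol, ADH1 and PDC1 had log2 fold changes of 1.35 and 1.32, while ALD3, an aldehyde dehydrogenase, was at -1.77.

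All 17 genes of glycogen and trehalose metabolism were lower, with a median of -1.39. GAC1, the subunit that directs protein phosphatase to glycogen synthase, had 285.6, 259.8 and 233.9 CPM in the G906D libraries, against 1316, 1231 and 1343 CPM in the WT libraries (log2 fold change -2.32, SE 0.184). GSY1 and GSY2, both glycogen synthases, had log2 fold changes of -2.10 and -1.88, with GSY2 at 526, 485.3 and 421.4 CPM in the G906D libraries, against 2119, 1567 and 1589 CPM in the WT libraries. Without WT replicate A the median of the list was -1.22. The stress response element AGGGG, bound by Msn2 and Msn4, was found within 500 bases of the start codon in 14 of the 17 genes, against 34.1% of 6006 protein-coding genes, and is shown in capitals for GSY2 as CCCCT on the opposite strand, from R64 at chrXII:660508-660537 (+).
GSY2: gaacgcaattcaCCCCTttctttcttatgc
GAC1, the most lowered of them, had no AGGGG in its window.

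Genes of fatty acid use were lower, while calls among those of the respiratory chain were near the shares of all genes tested. Of 12 genes of beta-oxidation and carnitine 11 were lower and 0 higher (median -1.02), with PXA1, of the peroxisomal fatty acid importer, at 46.09, 47.34 and 44.91 CPM in the G906D libraries, against 157.1, 144.1 and 151.9 CPM in the WT libraries (log2 fold change -1.71). The citrate cycle had 13 of 18 genes lower and 5 higher. CIT3, a mitochondrial citrate and methylcitrate synthase, and SDH1, a succinate dehydrogenase subunit, were at -1.995 and -0.91, whereas IDH2, a subunit of isocitrate dehydrogenase, was at 0.74. In the respiratory chain and ATP synthase, 11 of 33 genes (33.3%) were higher and 11 (33.3%) lower. These shares are near the 31.9% and 33.2% of all genes tested. The list's median of -0.01 changed sign under RLE and DESeq2 scaling (0.03 with both), with TMM computed without chromosome VII (0.06) and without WT replicate A (0.11). The 2 cytochrome c genes went opposite ways, CYC1 at 1.44 and CYC7, which is used at low oxygen, at -1.49. In hexose transport, 3 of 20 genes were higher and 10 lower: the low-affinity transporter gene HXT3 had 1899, 2004 and 2308 CPM in the G906D libraries, against 624.7, 750.2 and 992.7 CPM in the WT libraries (log2 fold change 1.39), and the high-affinity HXT2 and HXT7 were at -1.78 and -1.38, with reads of HXT7 hard to tell from its near-copy HXT6.

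Chaperone genes moved in both directions. Of 34 genes of heat shock proteins and chaperones 20 were higher and 8 lower, with a median of 0.51. HSP26, a small heat shock protein, had 2308, 2562 and 2308 CPM in the G906D libraries, against 836.2, 637.2 and 644.8 CPM in the WT libraries (log2 fold change 1.76, SE 0.196). HSP30, a plasma membrane stress protein, had 239.2, 242.3 and 262.2 CPM in the G906D libraries, against 66.33, 73.52 and 72.71 CPM in the WT libraries (log2 fold change 1.81, SE 0.167). CPR6 and the HSP90 genes HSC82 and HSP82 were higher as well, at 1.49, 1.24 and 0.87. The 3 largest falls of the list were in HSP104, HSP42 and HSP78. HSP104, the disaggregase, had 623.7, 579.5 and 515.4 CPM in the G906D libraries, against 1321, 1069 and 1074 CPM in the WT libraries (log2 fold change -1.01, SE 0.171). HSP42, which gathers misfolded proteins, had 422.4, 330.2 and 306.2 CPM in the G906D libraries, against 795.3, 633.3 and 672.8 CPM in the WT libraries (log2 fold change -0.99), and HSP78, the mitochondrial disaggregase, was at -0.91. For none of these genes did the strains overlap.

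Both kinds of upstream element are shown for HSP104, AGGGG at chrXII:88439-88468 (+) and the Hsf1 element TTCNNGAANNTTC, here as its complement, at chrXII:88318-88347 (+), both from R64 with the match in capitals.
HSP104, AGGGG: agtaaaaggcaaAGGGGcgcaaacttatgc
HSP104, Hsf1 element: tttttccaGAATTTTCTAGAAgggttatta
AGGGG was found upstream of 14 of the 34 chaperone genes (41.2%), near the 34.1% of 6006 protein-coding genes. The median was -0.30 for these 14 and 0.84 for the other 20. Among all 5831 protein-coding genes tested, those with AGGGG also had the lower median, -0.18 against 0.02 without it. The Hsf1 element was also found upstream of 14 of 34, with medians of 0.51 with it and 0.54 without it, against 1.48% of 6006 protein-coding genes that held it. None of these differences was tested. HSP26, HSP30 and CPR6, which rose, had no match to this form of the Hsf1 element in their windows. HSP104 and HSP42, which fell, had 2 matches each. Genes of the cytosolic CCT chaperonin, which folds actin and tubulin, were higher in 7 of 8 cases (median 0.54), and proteasome genes in 25 of 32 (median 0.40).

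Genes of smaller groups accounted for several of the largest falls. DSF1, a mannitol dehydrogenase gene, had 13.33, 10.39 and 8.891 CPM in the G906D libraries, against 171.1, 79.58 and 69.15 CPM in the WT libraries (log2 fold change -3.29, SE 0.536). PHO89, a sodium-phosphate symporter, had 59.78, 62.55 and 75.64 CPM in the G906D libraries, against 411.6, 306.5 and 525.6 CPM in the WT libraries (log2 fold change -2.65). PDH1, of propionate metabolism, had 32.15, 28.8 and 28.09 CPM in the G906D libraries, against 232.1, 138.9 and 172.3 CPM in the WT libraries (log2 fold change -2.61, SE 0.2). The groups did not overlap for these genes, which the rule that chose them required. The WT libraries of DSF1 differed by more than 2-fold among themselves, and its log2 fold change was -2.77 without WT replicate A. SIP18, of the osmotic stress response, and SPS100, of the spore wall, were at -2.44 and -2.41, and at -1.88 and -1.97 without WT replicate A. Of 21 genes of phosphate uptake and storage, 10 were lower and 3 higher, and the acid phosphatase gene PHO3, which is repressed by thiamine and not by phosphate, was at 1.83. Of 27 antioxidant genes 12 were lower and 3 higher, and of 24 ergosterol genes 12 higher and 6 lower, the last with a median of 0.14 that was -0.003 with scaling by total count alone. Of 25 genes of iron and copper uptake, 10 (40%) were lower and 6 (24%) higher, which is near the 33.2% and 31.9% of all genes tested. Of 15 purine synthesis genes 6 were higher and 1 lower, and 3 of the 6 lie on chromosome VII.

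A test of the change in the strain difference asks which of these differences grew or shrank between 0 h at 30 °C and 2 h at 37 °C. No library came from cells kept at 30 °C for 2 h, so heat and time in culture cannot be told apart. This test passed for 23.3% of the 6386 genes tested, 810 upward (12.7%) and 678 downward (10.6%), in edgeR's quasi-likelihood test. With scaling by total count alone 1800 genes changed upward and 305 downward, and the median change over all genes was 0.24, against 0.04 with TMM. On chromosome VII, 80 genes changed upward and 58 downward, with a median change of 0.06. Among the lists, arginine (7 of 9), aromatic (8 of 14) and histidine genes (4 of 7) changed upward, with 0 downward in each. Serine and glycine genes did not (0 of 7 upward, 1 downward). Changes in glycolysis (11 of 17 upward, 0 downward), the proteasome (14 of 32 upward) and chaperones (13 of 34 upward, 2 downward) were also mostly upward. Mitochondrial ribosomal proteins (56 of 74 downward, 0 upward) changed downward. Median log2 fold changes were 0.32 at 0 h and 1.02 at 2 h for glycolysis, -0.07 and 0.51 for chaperones, and 0.23 and -0.33 for mitochondrial ribosomal proteins. With scaling by total count alone the medians at 0 h were -0.02 for glycolysis and -0.11 for mitochondrial ribosomal proteins, both turned in sign, while the median changes kept theirs. The ribosomal protein genes had medians of 0.82 at 0 h and 1.28 at 2 h, but only 20 of 138 passed this test.

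**Figure D4:**
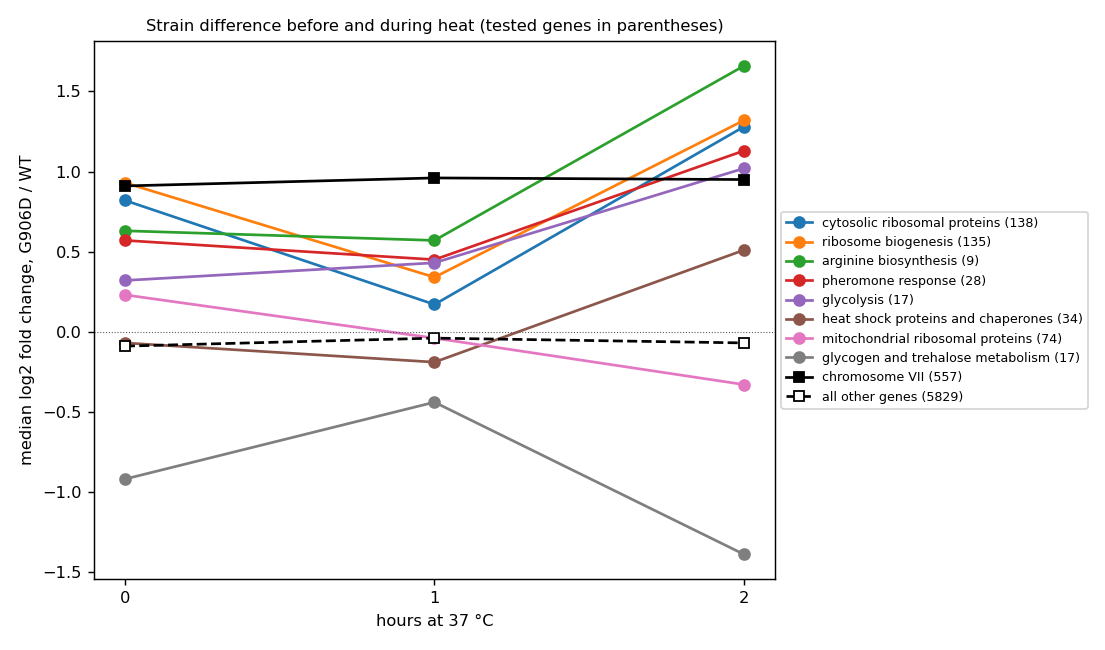
Median log2 fold change of G906D over WT at 0, 1 and 2 h at 37 °C for 8 gene lists, the genes of chromosome VII (black squares) and all other genes (open squares). Chromosome VII is at 0.91, 0.96 and 0.95, while glycolysis is at 0.32 at 0 h (-0.02 with scaling by total count alone) and 1.02 at 2 h.

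Among protein-coding genes outside chromosome VII whose log2 CPM averaged 5 or more, HSP26 changed the most upward. At 0 h it had 123, 127.5 and 141.7 CPM in the G906D libraries, against 267.5, 235.2 and 502.1 CPM in the WT libraries, a log2 fold change of -1.36. The strain order was thus reversed at 2 h, and the change was 3.12 on the log2 scale (SE 0.277, adjusted p = 5.97e-08, edgeR's quasi-likelihood test). NCA3, of mitochondrial ATP synthase expression, also turned round, with log2 fold changes of -0.94 at 0 h and 1.02 at 2 h. YRO2, a membrane protein of stress and acid response, had 560.9, 658.6 and 656.1 CPM in the G906D libraries, against 109.2, 128.3 and 121 CPM in the WT libraries at 2 h, and a log2 fold change of only 0.15 at 0 h. CHA1, the serine and threonine dehydratase, turned the other way. It had 574.5, 613.9 and 504.6 CPM in the G906D libraries, against 358.9, 208 and 329.2 CPM in the WT libraries at 0 h, and 426.1, 495.8 and 559.7 CPM in the G906D libraries, against 1218, 1003 and 1219 CPM in the WT libraries at 2 h. Its change was -2.13 (SE 0.317), and the groups did not overlap at either time.

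The comparison of G906D with C719A at 2 h asks where the strain of the aminoacylation mutant differs from that of the editing mutant, without the WT libraries. These strains also differ by the shift of chromosome VII (median 0.94). Effects of the ALA1 changes and of that shift cannot be told apart here. Of the genes tested, 39.5% differed, 1334 (20.9%) higher in G906D and 1189 (18.6%) lower, and 499 of the 1334 lie on chromosome VII. With scaling by total count alone 984 were higher and 2044 lower. For ribosomal proteins, ribosome biogenesis and pheromone response, the medians of G906D over C719A were 0.04, 0.33 and -0.21, against 1.28, 1.32 and 1.13 over WT. The first of these was -0.10 with scaling by total count alone. Of the 135 ribosome biogenesis genes 44 were higher in G906D than in C719A and 1 lower. Several lists of amino acid synthesis were lower in G906D than in C719A, with medians of -0.65 for arginine (8 of 9 lower, 0 higher), -0.49 for branched-chain (9 of 11 lower, 1 higher), -0.38 for aromatic (9 of 14 lower, 3 higher) and -0.55 for sulfur genes (11 of 17 lower, 1 higher). The medians were 0.03 for synthesis of glutamate, glutamine, asparagine and proline (3 of 10 lower, 3 higher) and -0.09 for serine and glycine (1 of 7 lower, 3 higher). With scaling by total count alone the former turned in sign, to -0.10. Glycogen and trehalose genes were lower, at -0.42 (9 of 17 lower, 0 higher), and so were genes of beta-oxidation, at -0.44 (6 of 12 lower, 0 higher). Glycolysis, mitochondrial ribosomal proteins and the proteasome were higher, with medians of 1.17 (13 of 17 higher), 0.65 (70 of 74) and 0.50 (30 of 32), and 0 members lower in each. The list counts against C719A include members on chromosome VII and were not split by it. Those members are 3 of the aromatic, 10 of the ribosome biogenesis, 4 of the glycolysis, 7 of the mitochondrial ribosomal and 4 of the proteasome genes.

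**Figure D5:**
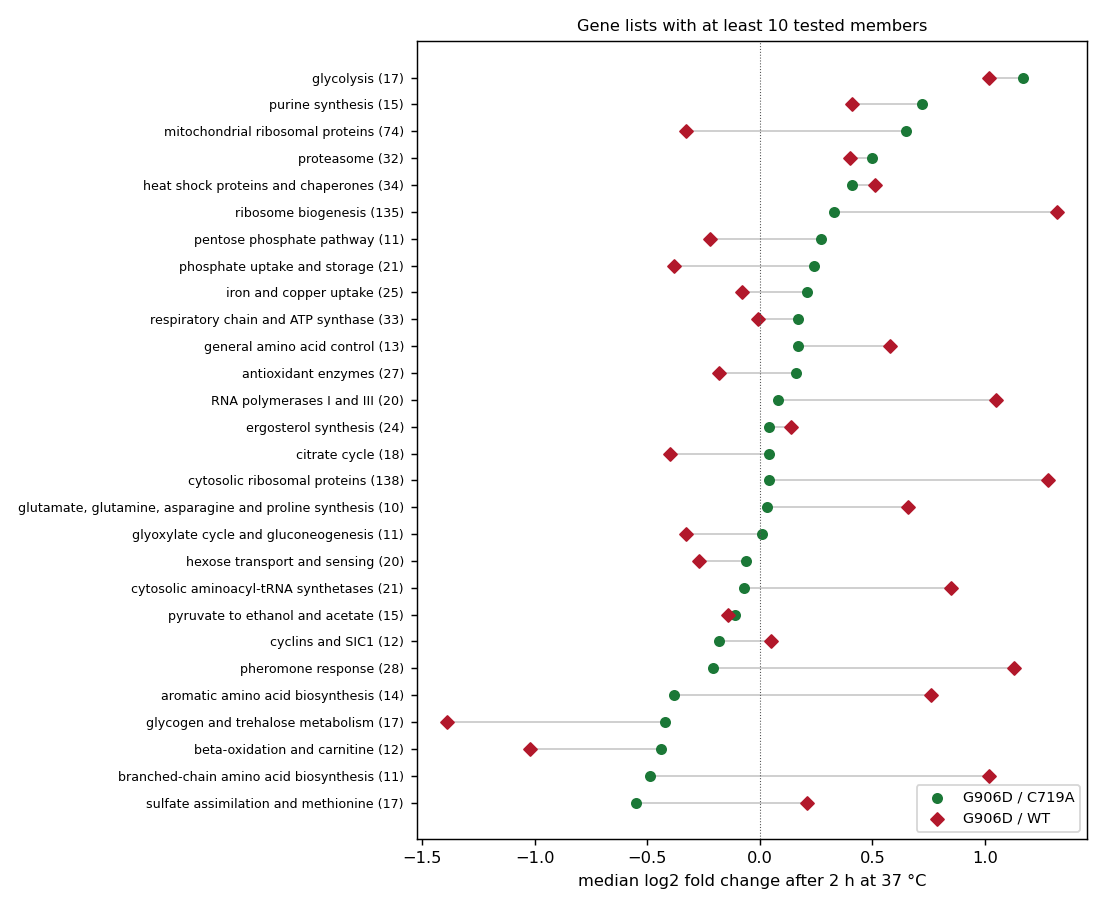
Median log2 fold change after 2 h at 37 °C of gene lists with at least 10 tested members (number in parentheses), for G906D over C719A (green circles) and for G906D over WT (red diamonds). Glycolysis stands high on both (1.17 and 1.02), ribosomal proteins are near 0 over C719A (0.04), and mitochondrial ribosomal proteins are on opposite sides (0.65 and -0.33).

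TDH2, on chromosome X, had 1489, 1748 and 1939 CPM in G906D and 354, 303.8 and 334.2 CPM in C719A (log2 fold change 2.38, SE 0.227). IDH2 had 436.7, 520.2 and 606.1 CPM in G906D and 151.8, 129.1 and 137 CPM in C719A (log2 fold change 1.90). HSP26 and HSP30, at 1.75 and 1.89, were likewise higher in G906D, and neither strain's libraries reached the other's. HSP104 was at -0.38 and did not pass the threshold (adjusted p = 0.0774, edgeR's quasi-likelihood test). Among protein-coding genes outside chromosome VII whose log2 CPM averaged 5 or more, the largest difference downward was in PDH1. PDH1 had 32.15, 28.8 and 28.09 CPM in G906D and 200, 175.2 and 174.8 CPM in C719A (log2 fold change -2.63). PUN1, a plasma membrane protein, had 265.8, 250 and 209.1 CPM in G906D and 903.6, 936.8 and 1025 CPM in C719A (log2 fold change -1.98). ALA1 itself was lower in G906D, with 1680, 1864 and 1813 CPM in G906D and 4360, 3844 and 4213 CPM in C719A (log2 fold change -1.21, adjusted p = 8.03e-07, edgeR's quasi-likelihood test). PRM1 and KAR4 were at -0.69 and -0.25, of which the second did not pass (adjusted p = 0.000545 and 0.0623, same test).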

How the data were processed

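RNA from 3 strains at 3 time points, with 3 replicates described as biological, gave 27 libraries. The authors deposited counts, the number of reads per gene without normalization, and FPKM values made from them. The submitters' processing notes name TopHat2 and Bowtie2. The counting tool and the genome build are not given in the sources used here. Of 7122 gene IDs, 6045 matched a locus tag of R64, which supplied symbols and sequences.

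The counts were tested with edgeR 4.0.16 under R 4.3.3 (filterByExpr, TMM, 1 mean per strain and time over all 27 libraries, glmQLFTest, Benjamini-Hochberg adjustment over 6386 genes, threshold 0.05). The lists, the members and the tests were chosen with earlier results of these data known, so no list is independent evidence. Genes named were ALA1, LEU2, GCN4, HSP104 and the strain markers. Added were the 8 largest rises and falls outside chromosome VII and the 6 on it (mean log2 CPM at least 5, past the threshold, libraries not overlapping), up to 3 members per list and direction, and the 5 largest changes of each other comparison. The last were taken outside chromosome VII at the same level and threshold, and against C719A also without overlap. Where the rule required it, the absence of overlap is not a result. STE12, FUS3, FAR1, STE6, HSC82 and HSP82 were named after their values were seen. Alternatives were RLE factors, total count alone, TMM without chromosome VII, filters of 10 counts in every library and of 1 count, DESeq2 1.42.0, limma-trend (limma 3.58.1) on log2 FPKM with pseudocounts of 1 and 0.1, the compared groups alone, a replicate block and each library left out. Sequence matches used Python 3.11.15 with both strands of the 500 bases before the start codon. Fold changes of genes at few counts depend on the prior count.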

Additional observations from a re-analysis of the deposited data

Results flagged for a closer look

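The strain difference changed between 0 h and 2 h for 1488 genes by the test of that change in edgeR. The 5 named genes with the largest upward changes outside chromosome VII were HSP26 (3.118 on the log2 scale), YRO2 (2.233), PRM1 (2.081), KAR4 (2.074) and NCA3 (1.957). The 5 with the largest downward changes were CHA1 (-2.133), PDH1 (-2.038), CIT3 (-1.805), BOP2 (-1.713) and YIG1 (-1.613). HSP26, NCA3 and CHA1 had strain differences of opposite sign at the 2 times, and PRM1 and KAR4 were already higher in G906D at 0 h, by 1.75 and 1.69. With 3 libraries per group, no test for a single outlying library was made.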

How the results depend on the processing

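Over the alternatives that keep all 6 libraries, the count of higher genes ran from 1680 (total count alone) to 2265 (TMM without chromosome VII), and that of lower genes from 1863 to 2698. Higher genes made up 38.4% of calls with total count alone, 38.8% and 38.9% with limma-trend on FPKM, and 49% with TMM. With each library left out in turn, 1906 to 1968 genes were higher, 1905 to 2049 lower, 456 to 462 higher on chromosome VII and 1444 to 1510 higher elsewhere. The change from 0 h to 2 h was called for 1120 (without WT replicate A at 2 h) to 1732 genes (without WT replicate B at 0 h), and the difference from C719A for 2004 to 2274. Over the other alternatives that keep all genes these counts ran from 1200 (compared groups alone) to 2105 (total count alone), and from 2452 (TMM without chromosome VII) to 3507 (compared groups alone). Replicate letters were not used as pairs. Same-letter deviations of G906D and WT at 2 h correlated at 0.505, 0.022 and 0.272, and those of unlike letters at -0.523 to 0.502. Deviations of 3 replicates from their mean are not independent, so these values do not settle whether the letters pair the libraries. With the letter as a replicate block, 2035 genes were higher and 2114 lower, 469 higher on chromosome VII and 1566 elsewhere, 1457 changed with time (1416 with the block within strains) and 2493 differed from C719A. A fit without the genes of chromosome VII, chosen after seeing the data, gave 1775 higher and 1850 lower genes elsewhere, and the pentose phosphate median was 0.29 in it, against -0.22. Of 198 named genes, 196 passed the threshold, which most of the naming rules required, so that share is not a result. Under some alternative 11 lost their call, and 0 turned their direction. Near-zero medians of cyclins (0.05, against -0.09 with total count alone) and core histones (-0.10, against 0.03 without WT replicate A) changed sign.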
